A study of Mus musculus with 8 samples.

Results

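The genes of ATP-dependent chromatin remodelling complexes were examined in the right cortex of mice that express a cytoplasmic human TDP-43. They were chosen by symbol from the table of genes the authors tested: symbols that begin with Smarc, Arid, Chd, Ino80, Baz, Actl6, Dpf, Brd, Mta or Mbd (a digit following where the family is numbered), and Bptf, Ep400, Srcap, Atrx, Pbrm1, Rbbp4 and Rbbp7. The rule gave 68 entries for 67 symbols, since Chd3 is listed as 2 transcripts, and all 68 were among the 10588 genes tested here, out of 28662 transcripts with values. Of the 68, 55 encode subunits of remodelling complexes, and 13 share only a name with them (such as Arid5a, Arid5b, Brd2, Mbd4 and Mbd5) and are described apart. Dpf3, Arid3a and Arid3c were not analysed here.

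Bigenic C57BL/6 mice (n = 4) carried Camk2a-tTa, a tetracycline transactivator under a promoter of forebrain excitatory neurons, together with deltaNLS-hTDP-43, a human TDP-43 with a mutated nuclear localization signal under a tetracycline responsive promoter. Doxycycline in the diet, which silences the transgene, was withdrawn at 28 days of age, and poly(A)+ RNA was taken 10 days later. Nontransgenic mice (n = 4) from the same kind of heterozygous parents followed the same diet and carried neither transgene, so an effect of tTA or of the insertions cannot be told apart from one of hTDP-43. Whole cortex was used, and cells that do not use the Camk2a promoter are in the sample. Both groups held the same number of males, which matters for the X-linked members Atrx, Rbbp7 and Smarca1.

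Remodelling complexes use the energy of ATP to slide, evict or exchange nucleosomes, and each is built around a motor of the SNF2 family. SWI/SNF (BAF) complexes open chromatin, ISWI complexes space nucleosomes, CHD proteins act at promoters and enhancers, NuRD couples a CHD motor to histone deacetylases, and INO80 and SWR1-type complexes handle the histone variant H2A.Z. When neural progenitors become neurons, several BAF subunits are exchanged for neuronal paralogs, among them Actl6a for Actl6b, and the assembly is then called nBAF.

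TDP-43 is known to bind UG-rich RNA, so the sense strand of each gene was searched in mm9 for runs of at least 6 copies of TG. Such a run occurred in 53 of the 67 genes (79.1%), beside 73.6% of all tested genes that could be located, and at 10.2 runs per 100 kb of gene, beside 10.5. Of the 494 runs examined for their position, 98.8% lay in introns, 5 in UTRs and 1 in another exon. The runs in Brd8 (2), Ino80c (1), Mbd1 (1) and Mbd2 (16) were not among those examined. Arid1b held the most runs (42), followed by Chd9 (34), Arid5b (31), Baz2b and Smarca2 (28 each) and Mta3 (25), and the strongly changed Rbbp7 and Dpf2 held 0. Runs were found in 86.7% of the members that rose and 87.5% of those that fell, so the presence of a run did not separate the directions. These windows of 30 bases (read from the NCBIM37 genome, which is mm9) start 9 bases before the run in 4 members whose level changed, 5′ to 3′ on the gene's strand, with the first 12 bases of the run in capitals. They show an intronic run of a gene that rose, an intronic run of a gene that fell, and exonic examples near the 3′ end of Smarca4 and in a retained intron transcript of Rbbp4.
Mta3 (intron, chr17:84205653-84205682, plus strand): tagcagaggTGTGTGTGTGTGtgtgtgtgt
Atrx (intron, chrX:103038964-103038993, minus strand): agaaatgaaTGTGTGTGTGTGtgtgtgtgt
Smarca4 (UTR, chr9:21508416-21508445, plus strand): ttgcctgaaTGTGTGTGTGTGtgtgtgtgt
Rbbp4 (exon of a retained intron transcript, chr4:129003648-129003677, minus strand): aacttggggTGTGTGTGTGTGtgtgtgtgt
A match is a description of sequence, and binding was not measured in these files.

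Values are normalized counts, the whole numbers the authors deposited, with column totals of 20.1 to 22.0 M in bigenic and 20.4 to 21.2 M in nontransgenic mice. From the spacing of these numbers, about 10.6 to 31.9 M reads lay behind each bigenic and 20.5 to 29.0 M behind each nontransgenic mouse, and 3 reads correspond to 1.94 to 6.20 normalized counts. Mouse Tardbp had 4908 to 5502 normalized counts in bigenic and 6116 to 7116 in nontransgenic mice (log2(fold change) −0.33 ± 0.07, limma adjusted p-value 0.00645), and the human transgene was not analysed here. The second bigenic mouse, in the order of the deposited columns (which is no replicate number), stood apart. It had the fewest reads (10.6 M) and lay at −46 and −22.3 on the first and second principal components, where the other bigenic mice lay between −15.1 and −12.8 and between 15 and 15.9. Among the nontransgenic mice the fourth lay furthest in the same direction, at 14 and −16.4. The other controls lay between 21.3 and 26.5 and between −7.03 and 0.978. The second bigenic mouse was the highest of the 4 bigenic mice for 55 of the 68 members (80.9%, beside 43.1% of all genes) and the lowest for 9. Calls over all members and medians by class are therefore given with and without it. Summed levels of marker lists also differed between the groups: choroid plexus 14101 to 29169 in bigenic against 6544 to 8183 in nontransgenic mice (4 of 5 markers higher, of which 3, Kl, Clic6 and F5, reached 10 RPM in bigenic mice alone, with 7 of the 12 listed not among the genes tested), astrocytes 124322 to 144488 against 152280 to 163643 (4 of 9 lower) and microglia 4261 to 5251 against 5500 to 6412 (5 of 8 lower). Sums of neuron markers (2 of 12 higher, 6 lower, 157175 to 202183 against 199479 to 217370, the highest bigenic value being that of the second mouse), oligodendrocyte markers (1 of 10 higher, 70746 to 90106 against 68868 to 86489) and endothelial markers (1 of 5 lower, 2479 to 2894 against 2726 to 3499) overlapped. Their part in the values below was not tested, and fewer cells of a type cannot be told apart from less RNA per cell.

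The changes in remodelling genes were small and ran in both directions. Between bigenic and nontransgenic mice 23 of the 68 members (33.8%) had an adjusted p-value below 0.05 by limma on log2(normalized count + 1), beside 35.9% of all genes tested, so the members changed about as often as other genes. Of these, 15 were higher in bigenic mice (22.1%, background 20.5%) and 8 were lower (11.8%, background 15.4%). Of all 68, 31 had an unadjusted limma p-value below 0.05, for which no share of all genes is given. Log2(fold changes) ranged from −0.79 for Rbbp7 to 0.74 for Mta3 and had a median of 0.15, beside 0.03 for all genes. With all 8 mice they were above 0 for 50 members (73.5%, beside 53.3% of all genes). All 4 bigenic mice lay above all 4 nontransgenic mice for 16 members (background 22.3%) and below them for 7 (background 16.7%). Without the second bigenic mouse the 15 higher and the 8 lower members kept their calls. The totals were 16 higher (background 25.3%) and 12 lower (background 20.2%), and the median fell to 0.05, beside 0.02 for all genes. The share above 0 and the counts without overlap are given with all 8 mice only. That share therefore cannot be read apart from the second bigenic mouse. The number of calls also depended on controls: without the first, the second or the third nontransgenic mouse it was 13, 11 and 9, with 7, 5 and 4 higher and 6, 6 and 5 lower. The shares of all genes called in these 3 fits are not given, so the fall cannot be read as particular to the members. Higher values also passed for Actl6a without the first bigenic mouse, for Brd2 and Ino80e without the third, for Brd2 and Mta2 without the fourth, and for Baz2a and Smarcd2 without the fourth nontransgenic mouse. Below, a call is an adjusted p-value under 0.05, and the value in parentheses after a lost call is the highest adjusted p-value over the 16 alternatives. The filter for testing (10 RPM, that is, normalized counts scaled to a common column total, in at least 1 mouse) was passed in every mouse by 60 members and in some mice by 8 (Arid3b, Arid5a, Actl6a, Baz1a, Chd1l, Ino80b, Ino80e and Mbd4), of which Arid5a and Ino80b passed through 1 bigenic mouse each and Chd1l through 3 nontransgenic mice alone. The counts by complex below stand beside the same shares of all genes, 35.9% called, 20.5% higher and 15.4% lower, and with 3 to 21 entries a class they are given as descriptions. They use all 8 mice. Without the second bigenic mouse the median was −0.01 for SWI/SNF, 0.16 for ISWI, 0.24 for CHD and 0.07 for NuRD. It was 0.11 for INO80 and SWR1-type members, 0.17 for other SNF2 members and 0.16 for ATPases. For members that are not remodeller subunits it was 0.05, and for partners 0.11. In that fit 2 SWI/SNF members were higher and 4 lower, 8 ATPases higher and 3 lower, and 12 partners higher and 5 lower.

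**Figure D1:**
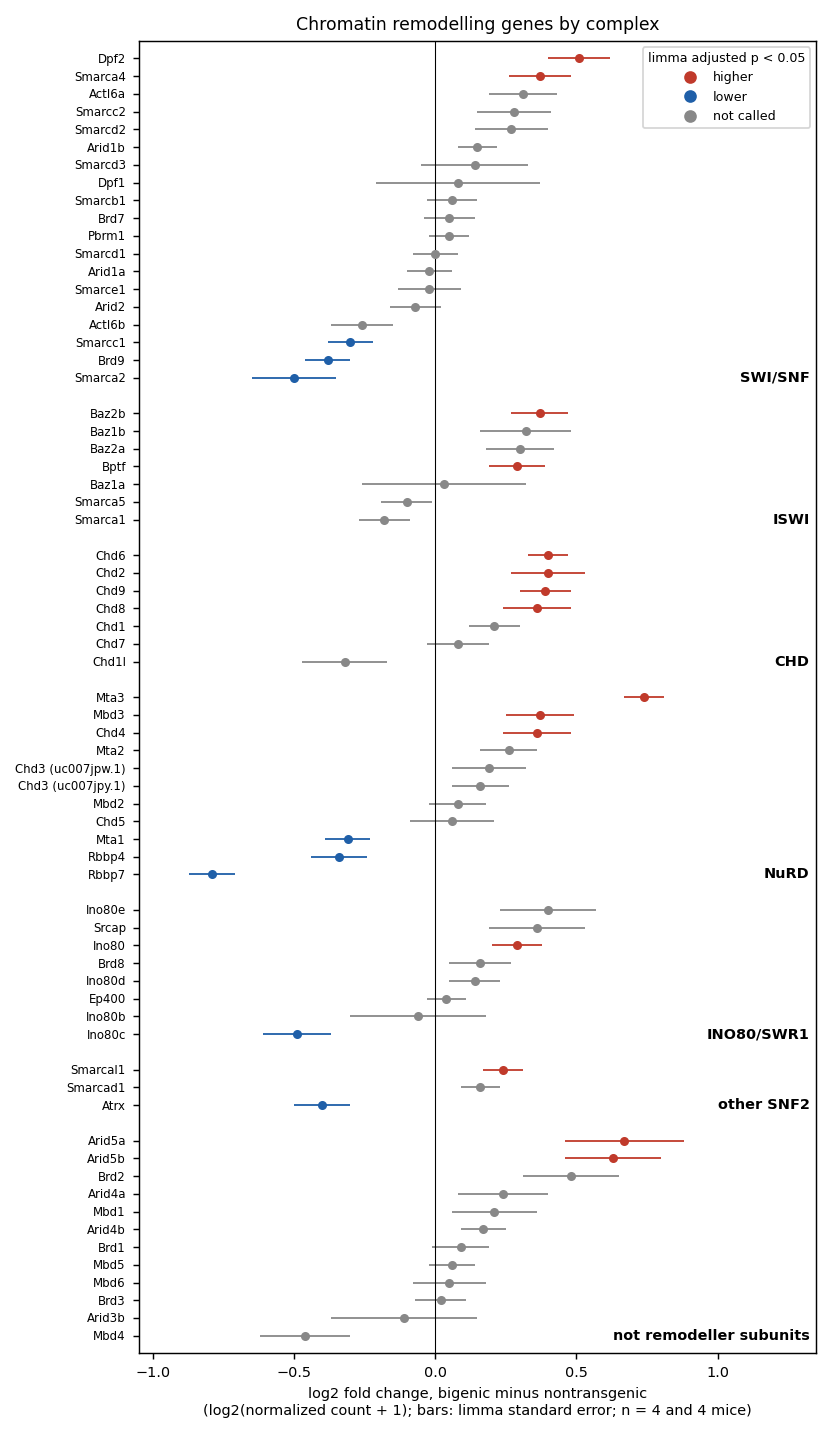
Log2(fold change) of 67 of the 68 members, bigenic minus nontransgenic, grouped by complex. Points are limma estimates and bars their standard errors (n = 4 and 4 mice), with red for higher, blue for lower and grey for an adjusted p-value of 0.05 or more. Mta3 at 0.74 and Rbbp7 at −0.79, both NuRD genes, lie at the ends.

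**Figure D2:**
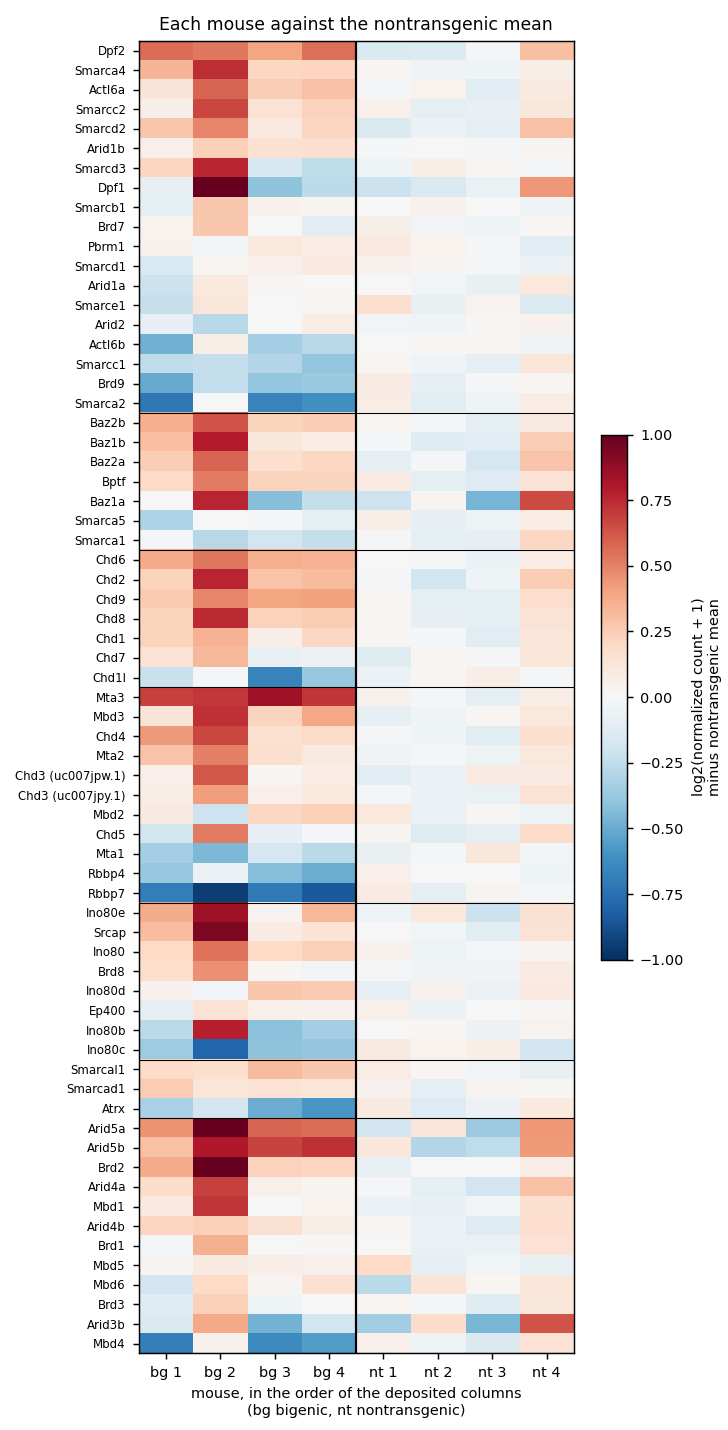
Each mouse's log2(normalized count + 1) minus the nontransgenic mean for the same members, with mice as columns in the deposited order (bg, bigenic; nt, nontransgenic) and genes in the same order as in the plot by complex. Colours run from −1 to 1 and larger differences take the end colour. The second bigenic column is the reddest for most genes, and Mta3, Dpf2 and Rbbp7 have a like colour in all 4 bigenic columns.

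The SWI/SNF motors moved in opposite directions. Smarca2 (BRM, chr19:26679650-26852811), 1 of the exchangeable ATPases of BAF, had 5195, 8529, 5371 and 5560 normalized counts in bigenic and 8994, 7874, 8292 and 8973 in nontransgenic mice. Of the bigenic mice, 3 lay far below every control, and the second lay within the range of the controls. The log2(fold change) was −0.50 ± 0.15 (limma standard error, n = 4 and 4, adjusted p-value 0.0249), and −0.66 without the second bigenic mouse (adjusted p-value 2.35e-05, range over all alternatives 1.15e-06 to 0.0692). Smarca4 (BRG1, chr9:21420613-21508674), the alternative ATPase, had 4753, 6248, 4320 and 4350 normalized counts in bigenic and 3796, 3659, 3642 and 3909 in nontransgenic mice. Every bigenic mouse lay above every control, and the second was the highest (log2(fold change) 0.37 ± 0.11, adjusted p-value 0.0293, and 0.25 without that mouse). The ratio of Smarca4 to Smarca2 within each mouse was 0.915, 0.733, 0.804 and 0.782 in bigenic mice and 0.422, 0.465, 0.439 and 0.436 in nontransgenic mice. Here the second bigenic mouse lay with its group, and the groups did not overlap. Per kb of exon in any annotated transcript, Smarca2 stood at 1330 normalized counts in nontransgenic and 961 in bigenic mice, and Smarca4 at 579 and 759. The adjusted p-value of Smarca4 passed 0.05 without the first bigenic or without the first, the second or the third nontransgenic mouse (up to 0.0776), and that of Smarca2 without any mouse other than the second bigenic or the second nontransgenic (up to 0.0692).

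Of the subunits exchanged when neurons form, the ubiquitous Dpf2 was higher in bigenic mice, while Dpf1, Actl6a, Actl6b, Ss18, Ss18l1 and Phf10 did not pass the test. The ratio of neuronal Actl6b to progenitor Actl6a, which was not tested, was lower in each bigenic mouse than in any control. Dpf2 (BAF45D, chr19:5896516-5913010), a ubiquitous double PHD finger subunit, had 872, 854, 779 and 868 normalized counts in bigenic and 536, 539, 582 and 727 in nontransgenic mice. All bigenic mice lay above all controls, by a log2(fold change) of 0.51 ± 0.11 (adjusted p-value 0.00529). Its neuronal paralog Dpf1 (BAF45B) had 796, 1770, 638 and 704 against 729, 760, 806 and 1140. The second bigenic mouse lay far above all others, and the difference was not detectable (0.08 ± 0.29, adjusted p-value 0.851). Actl6a (BAF53A), the actin-related subunit of progenitors, had 219, 300, 238 and 246 against 199, 205, 186 and 213, all bigenic above all controls, yet missed the threshold (0.31 ± 0.12, adjusted p-value 0.0716). Actl6b (BAF53B), its neuronal counterpart, had 504, 730, 556 and 581 against 701, 712, 713 and 685. Of the bigenic mice, 3 lay below every control and the second lay above them all (−0.26 ± 0.11, adjusted p-value 0.0916). Without that mouse Actl6b was lower (−0.36, adjusted p-value 0.00204, range over all alternatives 0.000258 to 0.203). The ratio of Actl6b to Actl6a within a mouse was 2.30, 2.43, 2.34 and 2.36 in bigenic and 3.52, 3.47, 3.83 and 3.22 in nontransgenic mice, again with no overlap and with the second bigenic mouse inside its group. The ratio of Dpf1 to Dpf2 overlapped between the groups (0.811 to 2.07 against 1.36 to 1.57), and so did that of neuronal Ss18l1 to progenitor Ss18 (2.53 to 3.58 against 2.53 to 2.76), whose mean was higher in bigenic mice (3.11 against 2.69). Other exchanged subunits, taken from a list of partners, did not pass the test: progenitor Ss18 had 436, 300, 398 and 421 against 428, 403, 404 and 438 (−0.12 ± 0.12, limma adjusted p-value 0.470), and neuronal Ss18l1 had 1101, 1075, 1311 and 1286 against 1181, 1095, 1113 and 1110 (0.08 ± 0.09, limma adjusted p-value 0.495). Phf10 (BAF45A), a PHD subunit of progenitors, had 537 to 561 in bigenic and 537 to 558 in nontransgenic mice (−0.01 ± 0.07).

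**Figure D3:**
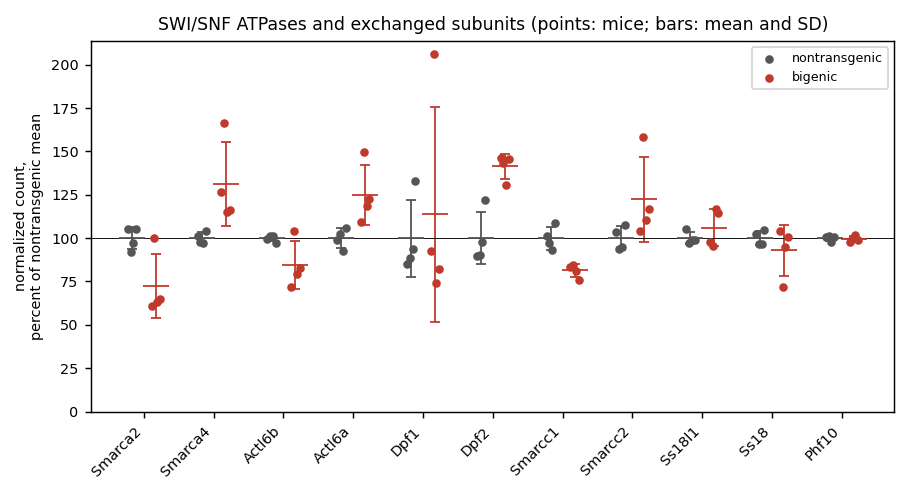
Normalized counts of SWI/SNF ATPases and exchanged subunits as a percent of the nontransgenic mean. Points are mice, and bars the mean and SD (n = 4 per group). The 4 bigenic mice lie above the controls for Smarca4, Actl6a and Dpf2 and below them for Smarcc1, and 1 bigenic mouse lies apart for Smarca2, Actl6b, Dpf1 and Smarcc2.

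In all, 5 of 19 SWI/SNF members passed the test, 2 higher and 3 lower, with a median log2(fold change) of 0.05. Brd9, the bromodomain subunit of non-canonical BAF, had 1550, 1859, 1686 and 1702 normalized counts in bigenic against 2335, 2076, 2172 and 2232 in nontransgenic mice (−0.38 ± 0.08, limma adjusted p-value 0.00515). Smarcc1 (BAF155), a core scaffold, had 1771, 1795, 1724 and 1613 against 2150, 2055, 1975 and 2302 (−0.30 ± 0.08, limma adjusted p-value 0.0137). Both genes were lower in every bigenic mouse than in any control. Smarcc2 (BAF170), the paralog of Smarcc1, had 6481, 9844, 6870 and 7265 against 6445, 5823, 5907 and 6700 and did not pass (0.28 ± 0.13, limma adjusted p-value 0.112). The ratio of Smarcc2 to Smarcc1 was 3.66, 5.48, 3.98 and 4.50 in bigenic and 3.00, 2.83, 2.99 and 2.91 in nontransgenic mice, without overlap. Of the subunits that define the assemblies, Arid1a of canonical BAF lay at −0.02, and Arid2, Pbrm1 and Brd7 of PBAF at −0.07, 0.05 and 0.05. Arid1b of canonical BAF had 1786, 2035, 1912 and 1939 against 1705, 1720, 1710 and 1760, all bigenic above all controls, but did not pass (0.15 ± 0.07, limma adjusted p-value 0.108, range over all alternatives 0.00844 to 0.572). Core subunits lay at 0.06 for Smarcb1, −0.02 for Smarce1, 0.00 for Smarcd1, 0.27 for Smarcd2 and 0.14 for Smarcd3, none of which passed, and 54.3% of the exon bases of Smarcd3 overlap Chpf2, in counts not stated to use strand.

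Of the 7 ISWI members, 2 passed the test, both higher, with a class median of 0.29. The motors themselves did not pass. Smarca5 (SNF2H) had 1028, 1272, 1258 and 1198 normalized counts in bigenic and 1325, 1206, 1231 and 1338 in nontransgenic mice (−0.10 ± 0.09, limma adjusted p-value 0.376), and 76.3% of its 50-base exon windows occur once in the genome. Smarca1 (SNF2L), its X-linked paralog, had 1472, 1228, 1309 and 1260 against 1467, 1385, 1400 and 1713 (−0.18 ± 0.09, limma adjusted p-value 0.166). Of the large partners that target the motors, Baz2b and Bptf were higher. Baz2b had 1886, 2256, 1709 and 1739 against 1485, 1451, 1364 and 1556, all bigenic above all controls (0.37 ± 0.10, limma adjusted p-value 0.0169). Bptf, the histone-reading subunit of NURF, had 5468, 6835, 5560 and 5571 against 5044, 4477, 4365 and 5252, again without overlap (0.29 ± 0.10, limma adjusted p-value 0.0415). Baz1b of the WICH complex (0.32), Baz2a of the nucleolar NoRC complex (0.30) and Baz1a of ACF (0.03) did not pass. The call of Baz2b was lost without the third nontransgenic mouse (adjusted p-value 0.0572), and that of Bptf without a filter or without any of 5 mice (the third or the fourth bigenic and the first, the second or the third nontransgenic, up to 0.122).

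Of the 7 CHD members outside NuRD, 4 passed the test, all higher, with a class median of 0.36. With the NuRD motors included, 5 of 11 CHD entries were higher (45.5%, beside 20.5% of all genes), 0 were lower (beside 15.4%), and 10 of 11 log2(fold changes) were positive (90.9%, beside 53.3%). In the fit without the second bigenic mouse 5 of the 11 were higher (beside 25.3% of all genes) and 1, Chd1l, was lower (beside 20.2%). Their median was then 0.16 in place of 0.21, Chd5 turned to −0.10 and Chd7 lay at 0.00. With 11 entries these shares are a description. Chd6 (subfamily III) had 4236, 4717, 4206 and 4149 normalized counts in bigenic and 3257, 3236, 3143 and 3440 in nontransgenic mice, groups far apart (0.40 ± 0.07, limma adjusted p-value 0.00220). Chd9 of the same subfamily had 3517, 4103, 3852 and 3880 against 2972, 2731, 2749 and 3303, also without overlap (0.39 ± 0.09, limma adjusted p-value 0.00666). Chd8, a gene known for autism-associated mutations, had 4733, 6790, 4752 and 4820 against 4112, 3823, 3814 and 4483 (0.36 ± 0.12, limma adjusted p-value 0.0426). Its groups did not overlap, with 3 bigenic mice close together and the second far above. Chd2 (subfamily I), mutated in childhood epilepsy, had 2658, 3855, 2769 and 2841 against 2246, 1994, 2203 and 2717 (0.40 ± 0.13, limma adjusted p-value 0.0423), and its highest control lay within the bigenic range.

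Chd1, a promoter-associated CHD of subfamily I, had 1341, 1464, 1203 and 1325 normalized counts in bigenic and 1158, 1137, 1063 and 1251 in nontransgenic mice (0.21 ± 0.09, limma adjusted p-value 0.0802). Chd7, the gene of CHARGE syndrome, had 546, 618, 468 and 475 against 453, 501, 488 and 538 (0.08 ± 0.11, limma adjusted p-value 0.572). Chd1l (ALC1), a motor activated by PARP, had 186, 215, 136 and 167 against 208, 219, 228 and 214 (−0.32 ± 0.15, limma adjusted p-value 0.114). The second bigenic mouse lay among the controls of Chd1l and the other bigenic mice below them. Without it Chd1l was lower (−0.42, adjusted p-value 0.0173, range over all alternatives 0.000879 to 0.262). Chd6 and Chd9 stayed below 0.05 in every alternative, while Chd2 (up to 0.122) and Chd8 (up to 0.112) lost their calls without a filter and without the fourth bigenic or the first, the second or the third nontransgenic mouse.

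NuRD held the largest rise and the largest fall among the members, and 6 of its 11 entries passed the test (54.5%, beside 35.9% of all genes), 3 higher (27.3%, beside 20.5%) and 3 lower (27.3%, beside 15.4%), with a median of 0.16. The MTA scaffolds diverged. Mta3 (chr17:84105503-84223055) had 1466, 1491, 1648 and 1502 normalized counts in bigenic and 941, 905, 859 and 955 in nontransgenic mice. The groups were far apart, at 1527 ± 82.2 against 915 ± 42.9 (SD, n = 4), with a log2(fold change) of 0.74 ± 0.07 and an adjusted p-value of 0.000102 by limma. Mta1 had 737, 680, 828 and 773 against 885, 923, 1008 and 912, every bigenic mouse below every control (−0.31 ± 0.08, limma adjusted p-value 0.0189). Mta2 did not pass (0.26 ± 0.10, limma adjusted p-value 0.0634). The ratio of Mta3 to Mta1 was 1.99, 2.19, 1.99 and 1.94 in bigenic and 1.06, 0.980, 0.852 and 1.05 in nontransgenic mice, so that the transcripts were near parity in controls and about 2.03 to 1 in bigenic mice, on counts not corrected for length. Its separation follows from those of Mta3 and Mta1 and adds nothing to them.

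Both WD40 histone-binding subunits fell. Rbbp7 (RbAp46, chrX:159198334-159217024), which also serves NURF and PRC2, had 1265, 1061, 1254 and 1144 normalized counts in bigenic and 2165, 1923, 2080 and 2012 in nontransgenic mice. The groups stood at 1181 ± 96.9 and 2045 ± 103 (SD, n = 4) and were far apart, with a log2(fold change) of −0.79 ± 0.08 and an adjusted p-value of 0.000124 by limma, and 83.7% of its exon windows occur once in the genome. Rbbp4 (RbAp48), which also belongs to CAF-1, had 1390, 1735, 1344 and 1279 against 1868, 1803, 1797 and 1748. Every bigenic mouse lay below every control, the second by a narrow margin (−0.34 ± 0.10, limma adjusted p-value 0.0235). The ratio of Rbbp4 to Rbbp7 was 1.10, 1.64, 1.07 and 1.12 in bigenic against 0.863, 0.938, 0.864 and 0.869 in nontransgenic mice. Thus Rbbp7 fell further than Rbbp4 in each bigenic mouse, and the order of these counts was the opposite of that in every control.

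Of the NuRD motors, Chd4 was higher, while Chd3 and Chd5 did not pass the test. Chd4 (Mi-2 beta) had 8096, 9592, 6714 and 6912 normalized counts in bigenic and 5952, 5876, 5621 and 6782 in nontransgenic mice, with 1 control inside the bigenic range (0.36 ± 0.12, limma adjusted p-value 0.0383). Chd5, the neuronal motor, had 7317, 11931, 7834 and 8200 against 8468, 7656, 7788 and 9427 (0.06 ± 0.15, limma adjusted p-value 0.772), and the second bigenic mouse alone lay above the controls. The more abundant Chd3 transcript (uc007jpy.1) had 16738, 21508, 16663 and 17274 against 15856, 15450, 15402 and 17756 (0.16 ± 0.10, limma adjusted p-value 0.226). The other (uc007jpw.1) had 2101, 3119, 2048 and 2129 against 1879, 1941, 2147 and 2147 (0.19 ± 0.13, limma adjusted p-value 0.285), and reads on exons the transcripts share cannot be assigned with certainty. Mbd3, the MBD subunit that binds methylated DNA poorly, had 1812, 2744, 1929 and 2164 against 1560, 1605, 1680 and 1777, without overlap (0.37 ± 0.12, limma adjusted p-value 0.0413), and its paralog Mbd2 did not pass (0.08).

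Calls of Mta3 and Rbbp7 held in all 16 alternatives. Mta1 lost its call without the second or the third nontransgenic mouse (up to 0.0661). Chd4 lost it without a filter or without the first bigenic or the first, the second or the third nontransgenic mouse (up to 0.106), and Mbd3 without a filter, after quantile normalization or without the fourth bigenic or any nontransgenic mouse (up to 0.105). Rbbp4 lost it after a trend on GC content and length was removed or without any mouse other than the second bigenic and the fourth nontransgenic (up to 0.0665).

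**Figure D4:**
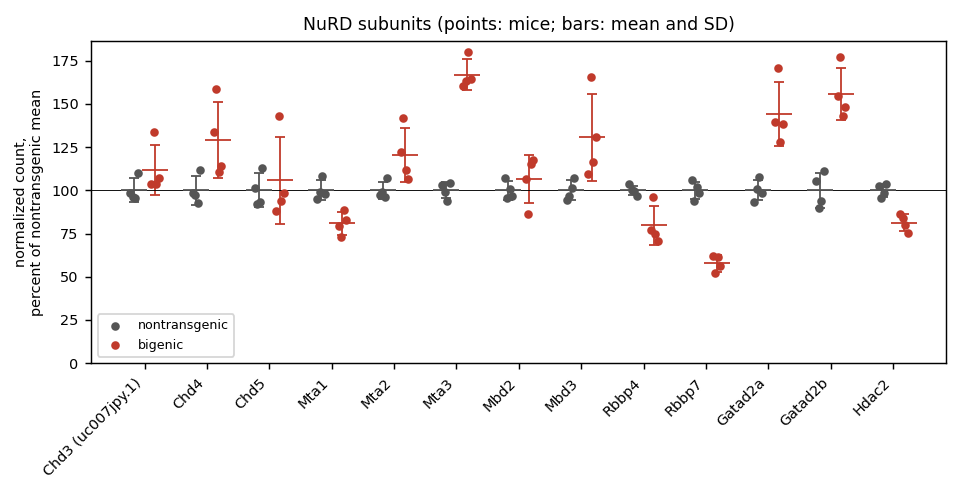
Normalized counts of NuRD subunits and of the partners Gatad2a, Gatad2b and Hdac2 as a percent of the nontransgenic mean. Points are mice and bars the mean and SD (n = 4 per group). Mta3, Gatad2a and Gatad2b lie above the controls in every bigenic mouse, and Mta1, Rbbp4, Rbbp7 and Hdac2 lie below.

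Of the 8 INO80 and SWR1-type members, 2 passed the test, 1 in each direction, with a median of 0.15. Ino80, the motor, had 1104, 1402, 1102 and 1137 normalized counts in bigenic and 990, 929, 953 and 978 in nontransgenic mice. All bigenic mice lay above all controls (0.29 ± 0.09, limma adjusted p-value 0.0307). Ino80c, a small subunit of the same complex, had 404, 298, 392 and 397 against 552, 531, 544 and 453, all below (−0.49 ± 0.12, limma adjusted p-value 0.0111). The motor and a subunit of 1 complex thus moved in opposite directions, and Ino80b (−0.06), Ino80d (0.14) and Ino80e (0.40) did not pass. Ino80b was at 151 to 161 in controls and at 130, 118 and 124 in 3 bigenic mice, and the second had 269. Without that mouse it was lower (−0.34, limma adjusted p-value 0.0344, range over all alternatives 0.0143 to 0.982).

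Srcap, which exchanges H2A for H2A.Z, had 1813, 2796, 1548 and 1613 normalized counts in bigenic and 1460, 1436, 1357 and 1623 in nontransgenic mice (0.36 ± 0.17, limma adjusted p-value 0.118), with overlap. Ep400, the motor of the TIP60 complex, had 2296, 2715, 2551 and 2529 against 2539, 2357, 2462 and 2476 (0.04 ± 0.07, limma adjusted p-value 0.732), and Brd8 of the same complex lay at 0.16 and did not pass. The call of Ino80c held in all 16 alternatives, and that of Ino80 was lost without the fourth bigenic mouse or any nontransgenic mouse (up to 0.0868).

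The remaining SNF2-family members were split. Atrx (chrX:102992954-103124736), which with Daxx deposits the histone variant H3.3 in heterochromatin, had 10514, 11612, 9353 and 8799 normalized counts in bigenic and 14038, 12038, 12650 and 14143 in nontransgenic mice. Every bigenic mouse lay below every control (−0.40 ± 0.10, limma adjusted p-value 0.0125), and its call was lost with the GC and length correction (−0.34, adjusted p-value 0.066). Smarcal1, an annealing helicase of stalled replication forks, had 2403, 2362, 2628 and 2541 against 2225, 2140, 2072 and 2001, all above (0.24 ± 0.07, limma adjusted p-value 0.0275). Its call was lost after quantile normalization or without any of 5 mice (the third or the fourth bigenic and the second, the third or the fourth nontransgenic, up to 0.090). Smarcad1, a remodeller of replicated heterochromatin, had 1105, 1009, 1025 and 1008 against 959, 872, 950 and 936, without overlap, but did not pass (0.16 ± 0.07, limma adjusted p-value 0.111).

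Across all complexes, 10 of the 21 ATPase entries passed the test (47.6%, beside 35.9% of all genes), 8 higher (38.1%, beside 20.5%) and 2 lower (9.52%, beside 15.4%; Smarca2 and Atrx), with a median of 0.19. Per kb of annotated exon, the ATPases with the highest mean levels in nontransgenic mice were Smarca2 (1330 normalized counts per kb), Atrx (870), Chd5 (869), Chd4 (755) and Smarca4 (579), leaving out Chd3, whose transcripts share exons. In bigenic mice the order was Chd4 (976), Smarca2 (961), Chd5 (920), Smarca4 (759) and Atrx (663). The upper 3 of these were not separated by their spread between mice. At the low end, Chd7 stood at 35.9 and 38.2 normalized counts per kb and Chd1l at 72.2 and 58.5 in nontransgenic and bigenic mice.

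Among the 13 members that are not remodeller subunits, 2 passed the test, both higher, with a median of 0.17. Arid5a, which binds and stabilizes inflammatory mRNAs, had 180, 281, 197 and 194 normalized counts in bigenic and 115, 143, 102 and 178 in nontransgenic mice (0.67 ± 0.21, limma adjusted p-value 0.0295). The margin between the groups was 180 against 178, and the filter was passed only through the second bigenic mouse. Arid5b, a partner of the demethylase PHF2, had 564, 802, 735 and 764 against 498, 375, 386 and 618, with 1 control inside the bigenic range (0.63 ± 0.17, limma adjusted p-value 0.0182). Arid5a lost its call without the first, the second or the third nontransgenic mouse (up to 0.0858) and Arid5b without the second or the third (up to 0.0584).

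Brd2 (0.48 ± 0.17, limma adjusted p-value 0.0554) and Brd3 (0.02), which read acetylated histones, did not pass. Brd2 had 4034, 6659, 3666 and 3610 normalized counts in bigenic and 2969, 3127, 3114 and 3271 in nontransgenic mice, all above, and without the second bigenic mouse it passed (0.27, adjusted p-value 0.00502, range over all alternatives 0.00256 to 0.124). The glycosylase Mbd4 had 200, 331, 206 and 218 against 332, 310, 291 and 355 (−0.46 ± 0.16, limma adjusted p-value 0.0512). Here too the second bigenic mouse lay among the controls, and without it Mbd4 was lower (−0.62, limma adjusted p-value 0.000515, range over all alternatives 6.74e-05 to 0.119). Arid3b (−0.11), Arid4a (0.24), Arid4b (0.17), Brd1 (0.09), Mbd1 (0.21), Mbd5 (0.06) and Mbd6 (0.05) did not pass either.

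**Figure D5:**
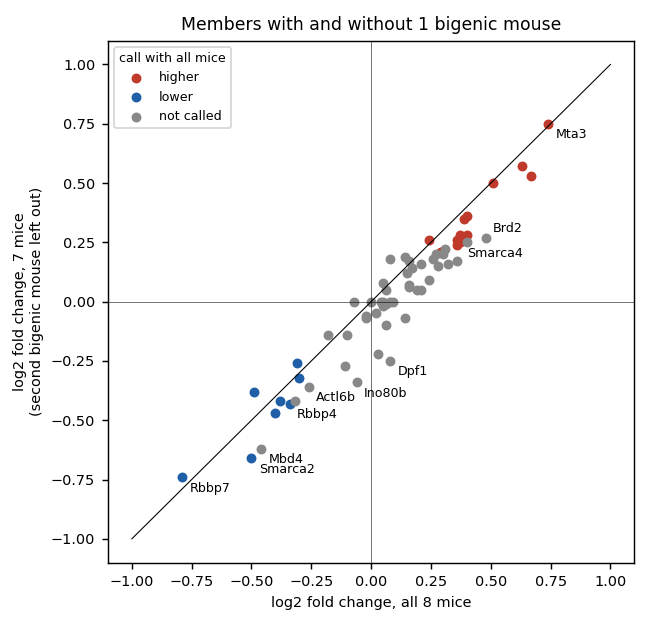
Log2(fold change) of the same members with all 8 mice (horizontal axis) and without the second bigenic mouse (vertical axis), coloured by the call with all 8 mice; the line marks equal values. Most points lie below the line, and Mta3 (0.74 and 0.75) and Rbbp7 (−0.79 and −0.74) lie close to it.

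Subunits that the symbol rule does not cover were taken from a list of 51 partners, of which 44 were measured. The test was passed by 12 (27.3%, beside 35.9% of all genes), of which 10 were higher (22.7%, beside 20.5%) and 2 lower (4.55%, beside 15.4%), with a median of 0.05. Among NuRD partners all 3 measured passed. Gatad2b, a scaffold that joins the MBD and CHD parts of the complex, had 1322, 1518, 1226 and 1270 normalized counts in bigenic and 904, 766, 803 and 950 in nontransgenic mice (0.64 ± 0.10, limma adjusted p-value 0.00111). The deacetylase Hdac2 had 1635, 1594, 1519 and 1430 against 1952, 1813, 1870 and 1965 (−0.30 ± 0.07, limma adjusted p-value 0.0105), and Gatad2a was higher (0.52). Thus among NuRD members and partners Gatad2a, Gatad2b, Mta3, Mbd3 and Chd4 were higher while Hdac2, Mta1, Rbbp4 and Rbbp7 were lower, and the groups overlapped for Chd4 alone among these.

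Outside NuRD, 1 of 9 SWI/SNF partners passed (Bcl7a, 0.60), 1 of 3 ISWI partners (Rsf1, 0.52), and 4 of 21 INO80, SRCAP and TIP60 partners (Mcrs1 0.63, Vps72 0.47, Yy1 0.45 and Epc2 −0.36). Mcrs1 had 266, 242, 173 and 209 against 142, 134, 125 and 169. It reached 10 RPM in 3 bigenic and 0 nontransgenic mice, so it was tested only through the group where it was higher, and 28.6% of its exon windows occur once in the genome. Epc2, a scaffold of the TIP60 complex, had 1252, 1071, 1391 and 1418 against 1841, 1624, 1637 and 1470, all below (limma adjusted p-value 0.0261). Of 8 other SNF2-family genes and partners 3 passed, all higher: Shprh, Ercc6 (0.38) and Rad54l2 (0.33). Shprh, a SNF2-family ubiquitin ligase, showed the largest change among the members and partners, with 3901, 4308, 3255 and 3464 normalized counts in bigenic and 2100, 1843, 1808 and 2127 in nontransgenic mice (0.92 ± 0.10, limma adjusted p-value 0.000215).

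The members are long genes. Their median exon length was 6.81 kb, beside 4.18 kb for all genes located, their median gene length 49.5 kb beside 28.3 kb and their median exon GC content 50.8% beside 49.6%, and 27 of 67 lay above 68.7 kb, as did 2577 of all 10307 located genes. Across the 67 genes, which share the same libraries, Spearman's rho of log2(fold change) was 0.17 with exon length, 0.06 with gene length and 0.15 with GC content. For all genes it was 0.03, −0.07 and 0.22. The members that rose had a median gene length of 99.0 kb and those that fell 33.6 kb, with 46.7 kb for those that did not pass. Reads at a few members may belong to neighbours or copies: besides Smarcd3, exons overlap other genes over 16.2% to 23.7% of the bases of Actl6a, Rbbp4 and Ino80e, and unique windows made up 86.5% of Baz1a, 87.6% of Smarce1 and 91.1% of Dpf2.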

How the data were processed

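The authors selected poly(A)+ RNA from right cortices (4 bigenic, 4 nontransgenic), trimmed adaptors (cutadapt), mapped to mm9 (Bowtie 0.12.7), kept uniquely mapping reads, counted them per exon (bedtools) and merged exons into genes. The deposited values are a score, normalized counts rounded to whole numbers, whose scaling is not described. A second table that the authors deposited holds a mean signal, a log2 fold change with its standard error, a p-value, an adjusted p-value and a q-value from DESeq2. Its symbols were used and its comparison was not.

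The worth of 1 read was estimated from the spacing of low values (8 of 8 simulated steps recovered). It exceeded 1 normalized count in 2 of 8 columns, where 99.7% and 99.8% of values were whole multiples, so count tests were not run. Columns name a group but no replicate number. Genes with at least 10 RPM in at least 1 mouse (10588) were compared as log2(normalized count + 1) with limma 3.58.1 (R 4.3.3, lmFit and trended eBayes), p-values being adjusted over all genes by Benjamini-Hochberg, and this scale understates changes of low genes. Simulated data for 10588 genes gave every gene the same normal spread (the median SD within groups), with no outlying mouse. In them 200 of 200 changed and 9 unchanged genes were called. Genes set to double there had a median log2(fold change) of 1, while those of the members ranged from −0.79 to 0.74. Recovery of differences as small as those of the members, or with unequal spreads or an outlying mouse, was not tested. Nothing in the sources used here ties the mice to litters, and p-values measure the spread between these mice. Lengths, positions and windows of 50 bases come from NCBIM37 with GENCODE annotation, and 97.8% of genes had a GC content and length. Python 3.11.15, numpy 2.4.6, pandas 2.3.3 and matplotlib 3.10.9 were used.

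Members, lists and tests were chosen with earlier results of these data known. Any member could be named, and 1 is counted but not reported here. Values per mouse are given for ATPases, exchanged BAF subunits, up to 3 called genes in each direction per class, and members that 1 mouse decides, which were chosen after their values were seen. Partners named are the 3 with the largest rise, those that fell, and others called. Ratios of genes within a mouse are descriptions that were not tested, and no share of all gene pairs stands beside them. Alternatives were pseudocounts of 10 and 0.1, no filter, a filter in every mouse, rescaling, quantile normalization, array weights, GC and length correction, and leaving out each mouse.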

Additional observations from a re-analysis of the deposited data

Results flagged for a closer look

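In 17 of 134 groups (67 of the members in 2 conditions) 1 mouse lay further from the nearest other mouse than Dixon's 95% limit for 4 values, where chance alone flags about 1 in 20 groups, and 16 of the 17 were the second bigenic mouse. It was the highest bigenic mouse for the called members Arid5a (281 normalized counts), Bptf (6835), Chd2 (3855), Chd6 (4717), Chd8 (6790), Ino80 (1402) and Smarca2 (8529). It was also the highest for Brd1 (1930), Brd2 (6659), both Chd3 transcripts (21508 for uc007jpy.1 and 3119 for uc007jpw.1), Dpf1 (1770), Ino80b (269), Mbd1 (991) and Mbd4 (331), which were not called. For Ino80c it was the lowest (298). The remaining value was Smarcd2 in the fourth nontransgenic mouse (313).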

How the results depend on the processing

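No paired analysis was possible because the deposited columns carry no replicate number. Of the 23 called members 8 stayed below 0.05 in all 16 alternatives (Mta3, Rbbp7, Dpf2, Chd6, Chd9, Brd9, Ino80c and Smarcc1), 15 rose above it in at least 1, and 0 changed sign. Of the 45 others, 21 passed in at least 1 alternative. Pseudocounts, both filters, rescaling, quantile normalization and the GC and length correction gave 18 to 26 called members. With array weights, where the second bigenic mouse had a weight of 0.0843, 42 members passed, 29 higher and 13 lower, and 25 partners. Leaving out each mouse gave 9 to 28 called members, 4 to 16 higher, 5 to 12 lower, and 9 to 17 partners. Apart from the fit without the second bigenic mouse, shares of all genes called under these settings are not given. The counts therefore describe the settings and are no result about the members. The cause of these differences was not tested. Signs turned only among 16 members that did not pass. With array weights these were Baz1a (−0.13), Arid2 (0.03), Chd7 (−0.03), Arid1a (0.03), Smarcd3 (−0.18), Dpf1 (−0.21) and Brd7 (−0.03). With the GC and length correction they were Mbd6 (−0.16), Smarce1 (0.02), Brd3 (−0.06), Chd7 (−0.02), Chd5 (−0.10), Smarcd3 (−0.01), Ep400 (−0.06) and Dpf1 (−0.03), and with quantile normalization Pbrm1 (−0.02), Brd3 (−0.05) and Ep400 (−0.02). Leaving out each mouse, log2(fold changes) ranged from −0.01 to 0.11 for Smarcb1, −0.04 to 0.13 for Mbd6, −0.07 to 0.05 for Smarce1, −0.22 to 0.24 for Baz1a, −0.05 to 0.07 for Brd3, −0.06 to 0.04 for Arid1a, −0.10 to 0.14 for Chd5, −0.07 to 0.27 for Smarcd3, −0.34 to 0.06 for Ino80b, −0.25 to 0.24 for Dpf1, −0.02 to 0.10 for Brd7 and −0.27 to 0.10 for Arid3b. With 4 mice a group, differences within the spread between mice could not be detected.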
